A study of Mus musculus with 12 samples.

Results

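The 10 genes Fos, Fosb, Jun, Junb, Jund, Egr1, Nr4a1, Nr4a2, Nr4a3 and Dusp1 were followed in NK and CD8 T cells that had been sorted out of mouse tumours. They were chosen by name as immediate early genes of the AP-1, EGR and NR4A families with the phosphatase Dusp1, and all 10 were found by their Ensembl identifiers among the 23707 genes that had a count in at least 1 library. All 10 also passed the filter of a mean normalized count of at least 10 and were among the 13279 genes tested.

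Immediate early genes are transcribed within minutes of a signal, from promoters that need no newly made protein. FOS and JUN proteins pair to form the transcription factor AP-1, EGR1 is a zinc finger factor, and NR4A1, NR4A2 and NR4A3 are orphan nuclear receptors that bind DNA without a known natural ligand. DUSP1 is a phosphatase that switches off the MAP kinases through which many of these genes are induced. In T and NK cells the genes respond to antigen and activating receptors, to cytokines and to stress, and warm enzymatic digestion of a tissue induces them as well. AP-1 works with NFAT at activation genes, and NR4A factors are known for their part, with TOX, in T cells under chronic antigen stimulation.

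The 12 libraries came from mice on a C57BL/6N background, matched by sex and age and between 6 and 12 weeks old, with a subcutaneous MC38 tumour (a colon adenocarcinoma line) in each flank. The mice were wild type (WT), lacked TYK2 in every cell (TYK2KO, here KO) or carried a kinase-inactive TYK2 (TYK2KE, here KE), TYK2 being a Janus kinase of the interferon and interleukin-12 receptors. All 6 groups shared the tumour, a stay of 8 to 10 days, 1 hour of collagenase D and DNase I at 37 °C, CD45 enrichment and a sort of 300 cells per library, either NK cells (CD45+, CD3ε-, NK1.1+) or CD8 T cells (CD45+, CD3ε+, CD8a+). Each group had 2 libraries. No undigested or unstained reference was analysed here, so that expression present in the tumour and expression induced by isolation cannot be told apart. Neither the labels nor the methods say whether the 2 libraries of a group came from separate mice or pooled tumours, and p-values measure the spread between these libraries only.

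Library totals ran from 10378761 to 14732882 counts. The markers separated NK from CD8 libraries, with Cd8a at 2.68 to 4.51 CPM (counts scaled to a library of 1000000 counts after TMM correction) in NK libraries and 2846 to 4114 in CD8 libraries, and Ncr1 at 841 to 2280 and 1.03 to 2.00. Cd3e measured 7.13 to 51.6 CPM in NK and 587 to 1462 CPM in CD8 libraries. These markers do not show the NK libraries free of other cells. In NK WT 1 and NK WT 2 the myeloid marker Apoe was at 7105 and 5410 CPM, against 841 and 929 CPM for Ncr1. Tyk2 itself did not separate the genotypes at the RNA level (55.8 to 119 CPM in NK and 47.1 to 86.8 in CD8 libraries), and the comparisons below rest on the labels. Transcripts of 15 myeloid markers summed to 19606, 16393 and 8913 CPM in NK WT 1, NK WT 2 and NK KO 1, to 1248 to 2184 in the other NK libraries and to 175 to 1068 in the CD8 libraries. Ccr2, Fcgr3 and Itgam of this list are also expressed by NK cells, and the sum of the other 12 was 17985, 14459 and 7378 CPM in the same 3 libraries, 324 to 635 CPM in the other NK libraries and 54.0 to 964 CPM in the CD8 libraries, a split made after the values were seen. In NK KO 2 and NK KE 1 the monocyte marker Cd14 was at 0 and the complement gene C1qa at 0.442 and 0.368 CPM. The myeloid markers Lyz2 and Cd68 were at 19.3 and 0.221 CPM in NK KO 2 and at 14.2 and 27.7 CPM in NK KE 1. In NK KE 2, Cd14, C1qa, Lyz2 and Cd68 were at 0.149, 40.0, 93.6 and 17.7 CPM. The differences between cell types as a mean over genotypes are given with and without those 3 libraries for the 4 members with the smallest p and for the list genes named as past the threshold. With them the mean is over WT, KO and KE, and without them it is over KO and KE only. No fit without them gives a value for WT or against WT in NK cells, since both NK WT libraries are among them, and the myeloid values stand beside those results.

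The 250 bases before the transcription start are shown for Nr4a2, Junb, Jun and Fos, the 4 members with the smallest p between the cell types. They are RefSeq sequences of GRCm38.p6, read 5′ to 3′ on the strand of the gene. Capitals mark matches, on either strand, to TGACG (the core of the cyclic AMP response element, CRE) and to TATAAA (the TATA box).
Nr4a2, chr2:57124004-57124253, minus strand: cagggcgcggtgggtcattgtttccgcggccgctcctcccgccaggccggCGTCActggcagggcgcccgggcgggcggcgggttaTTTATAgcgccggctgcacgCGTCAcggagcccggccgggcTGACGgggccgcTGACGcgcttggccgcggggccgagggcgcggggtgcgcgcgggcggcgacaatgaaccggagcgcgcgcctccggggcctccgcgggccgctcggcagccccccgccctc
Junb, chr8:84978749-84978998, minus strand: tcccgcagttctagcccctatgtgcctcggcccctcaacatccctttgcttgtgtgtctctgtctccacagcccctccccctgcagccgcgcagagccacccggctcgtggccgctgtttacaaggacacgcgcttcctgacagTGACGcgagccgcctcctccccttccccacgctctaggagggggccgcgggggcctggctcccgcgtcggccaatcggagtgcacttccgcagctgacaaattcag
Jun, chr4:95052223-95052472, minus strand: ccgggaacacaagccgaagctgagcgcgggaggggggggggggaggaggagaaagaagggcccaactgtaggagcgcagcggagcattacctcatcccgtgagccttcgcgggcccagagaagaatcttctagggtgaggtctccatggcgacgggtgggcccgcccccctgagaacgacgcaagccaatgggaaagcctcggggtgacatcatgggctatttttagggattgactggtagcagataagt
Fos, chr12:85473640-85473889, plus strand: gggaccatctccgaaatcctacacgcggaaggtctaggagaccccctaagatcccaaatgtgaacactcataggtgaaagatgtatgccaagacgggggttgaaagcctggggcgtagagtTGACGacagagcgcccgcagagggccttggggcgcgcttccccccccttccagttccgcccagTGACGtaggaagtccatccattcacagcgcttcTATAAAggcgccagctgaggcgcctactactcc

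Windows on the chromosome of Egr1 were not used, for the members or for the comparison set, so that 9 of the 10 members had a RefSeq window here. TGACG was present in 7 of the 9 (Fos, Fosb, Junb, Nr4a1, Nr4a2, Nr4a3 and Dusp1), against 17.8% of 32851 windows of the same length. It occurred 4 times in each of Nr4a1, Nr4a2 and Nr4a3, 3 times in Dusp1, 2 times in Fos and 1 time each in Fosb and Junb. The full element TGACGTCA, which contains TGACG on both strands, was found only before Dusp1 (1.55% of windows). TATAAA was found before Fos and Nr4a2 (12.4% of windows). The AP-1 site TGACTCA (4.46% of windows), the EGR site GCGTGGGCG (0.536%), the NR4A monomer site AAAGGTCA (1.34%) and the CArG box bound by SRF (1.47%) were in none of the 9. These are matches of letters in a fixed window, and the RefSeq start lay 53656 bases from the GENCODE gene start for Dusp1, 12577 for Nr4a1, 1210 for Jund and no more than 152 for the other 6, so that the windows of Dusp1 and Nr4a1 lie inside the GENCODE gene.

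The members differed widely in level. Per kilobase of merged exon, the median over the 12 libraries was highest for Junb, at 211 CPM per kb, and Dusp1, at 198 CPM per kb. These levels lay at the 97.1 and 96.9 percentile of the genes tested. Nr4a1 (80.96 CPM per kb), Nr4a2 (49.4) and Fos (38.5) followed, then Egr1 (13.6), Jun (10.5), Nr4a3 (9.64), Jund (8.18) and Fosb (5.26), the last near the middle of all genes at the 49.7 percentile. Neighbours in this order overlapped in their range over libraries. Fos varied most between libraries, with the highest 54.2 times the lowest, followed by Egr1 (24.6 times) and Nr4a2 (10.4 times), whereas Junb varied least (2.63 times).

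**Figure D1:**
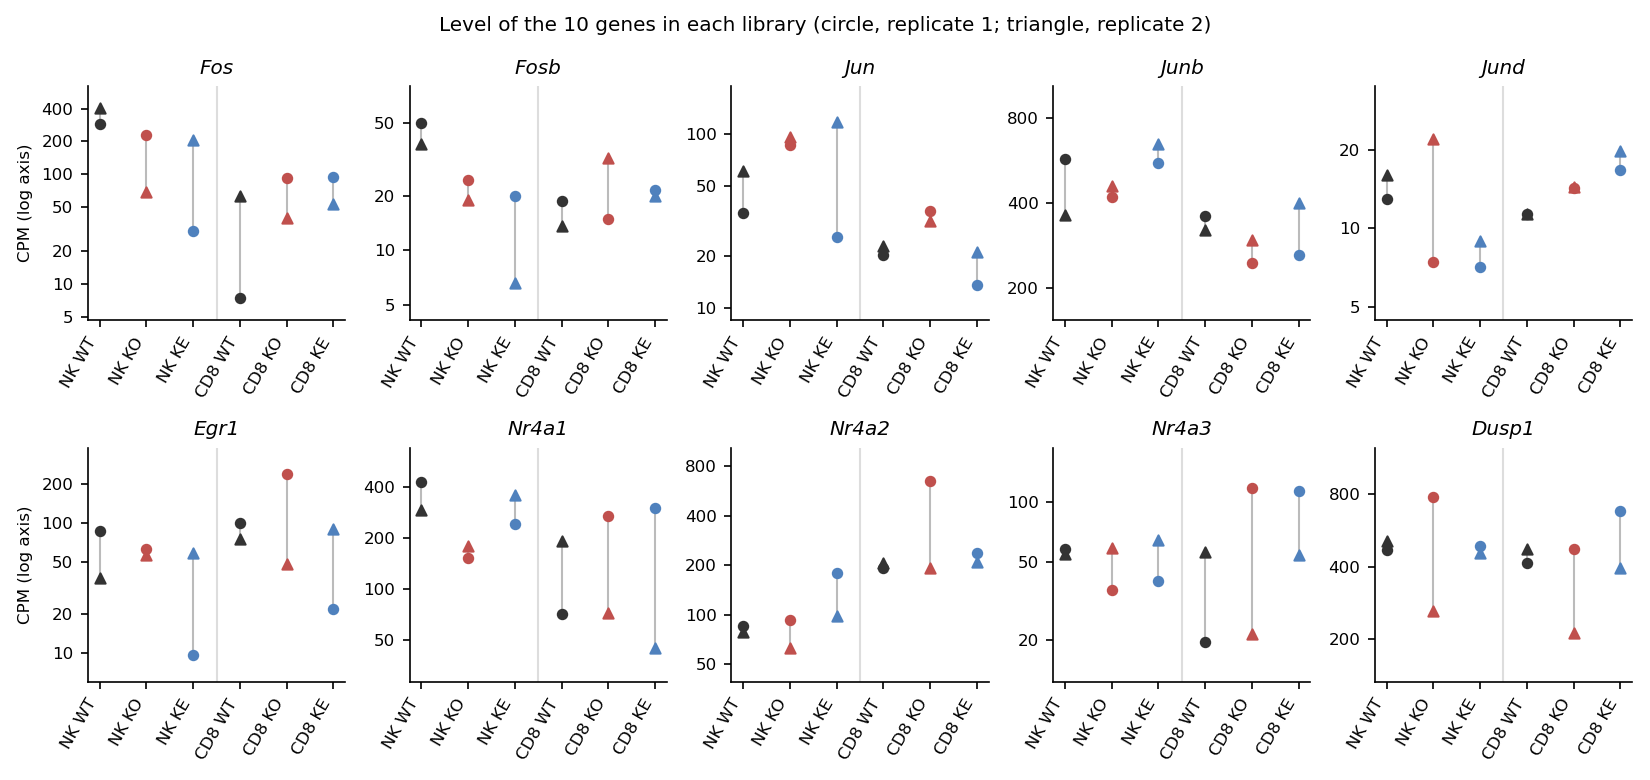
CPM (log axis) of each of the 10 genes in the 12 libraries, with circles for replicate 1, triangles for replicate 2, a grey line joining the replicates of a group, and black, red and blue for WT, KO and KE. The 6 NK libraries lie below the 6 CD8 libraries for Nr4a2, at no more than 178 against at least 192 CPM, and replicates of 1 group are often as far apart as groups are.

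FOS is the AP-1 subunit that needs JUN as its partner. Fos (ENSMUSG00000021250, GRCm38 chromosome 12, 85473890 to 85477273, plus strand) measured 290.3 and 401 CPM in the WT, 231 and 69.0 in the KO and 30.1 and 205 in the KE NK libraries. In CD8 T cells it measured 7.40 and 63.7 CPM in the WT, 93.5 and 40.0 in the KO and 95.6 and 53.7 in the KE group. The NK libraries WT 1, WT 2, KO 1 and KE 2 were above every CD8 library, whereas NK KO 2 and NK KE 1 lay within the CD8 range.

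FOSB is a relative of FOS with the same partners. Fosb (ENSMUSG00000003545, chromosome 7, 19302696 to 19310051, minus strand) measured 49.9 and 38.5 CPM in the WT, 24.4 and 18.9 in the KO and 19.9 and 6.61 in the KE NK libraries. CD8 T cells gave 18.8 and 13.7 CPM in the WT, 14.8 and 32.0 in the KO and 21.4 and 19.9 in the KE group. Both NK WT libraries were above all other libraries, and the remaining NK and CD8 libraries overlapped.

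JUN forms AP-1 with FOS proteins or with itself and is activated by the kinase JNK. Jun (ENSMUSG00000052684, chromosome 4, 95049034 to 95052222, minus strand) measured 35.1 and 61.5 CPM in the WT, 85.9 and 95.9 in the KO and 25.5 and 118 in the KE NK libraries. In CD8 T cells it measured 20.3 and 22.9 CPM in the WT, 36.1 and 31.6 in the KO and 13.6 and 20.9 in the KE group. NK libraries were higher, but NK WT 1 and NK KE 1 fell within the CD8 range.

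JUNB is a JUN relative that is abundant in activated lymphocytes. Junb (ENSMUSG00000052837, chromosome 8, 84974484 to 84978718, minus strand) measured 572 and 363 CPM in the WT, 421 and 462 in the KO and 554 and 649 in the KE NK libraries. The CD8 libraries held 362 and 321 CPM in the WT, 247 and 298 in the KO and 262 and 399.9 in the KE group. The groups touched only through NK WT 2, which was below CD8 KE 2.

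JUND is the JUN protein with the least inducible expression. Jund (ENSMUSG00000071076, chromosome 8, 70698949 to 70700616, plus strand) measured 13.0 and 16.01 CPM in the WT, 7.44 and 22.1 in the KO and 7.08 and 8.92 in the KE NK libraries. CD8 T cells gave 11.4 and 11.4 CPM in the WT, 14.3 and 14.4 in the KO and 16.8 and 19.9 in the KE group. Its values were low and its counts are uncertain, because the antisense gene Gm11175 lies over its exon on the other strand and it is not stated whether counting used strand.

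EGR1 is induced through ERK and the serum response factor and binds GC-rich sites. Egr1 (ENSMUSG00000038418) measured 87.0 and 38.1 CPM in the WT, 63.6 and 57.1 in the KO and 9.66 and 58.4 in the KE NK libraries. CD8 T cells gave 100.4 and 75.7 CPM in the WT, 237 and 48.5 in the KO and 21.8 and 90.4 in the KE group. The lowest NK and the lowest CD8 library both carried the KE genotype, and CD8 KO 1 was the highest library.

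NR4A1, also called NUR77, is widely used as a reporter of antigen receptor signals. Nr4a1 (ENSMUSG00000023034, chromosome 15, 101254269 to 101274795, plus strand) measured 432 and 292 CPM in the WT, 153 and 179 in the KO and 241 and 359 in the KE NK libraries. The CD8 libraries held 71.0 and 192 CPM in the WT, 271 and 72.2 in the KO and 301 and 44.9 in the KE group. The CD8 libraries spread 6.71-fold and the NK libraries 2.81-fold, and the 2 cell types overlapped.

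NR4A2, also called NURR1, is the second NR4A receptor. Nr4a2 (ENSMUSG00000026826, chromosome 2, 57106830 to 57124003, minus strand) measured 85.7 and 77.9 CPM in the WT, 92.2 and 62.3 in the KO and 178 and 98.1 in the KE NK libraries. In CD8 T cells it measured 192 and 206 CPM in the WT, 650.3 and 193 in the KO and 238 and 209.6 in the KE group. All 6 NK libraries were below all 6 CD8 libraries, with NK KE 1 closest to the CD8 range and CD8 KO 1 far above the other CD8 libraries.

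NR4A3, or NOR1, is the third NR4A receptor. Nr4a3 (ENSMUSG00000028341, chromosome 4, 48045153 to 48086447, plus strand) measured 58.2 and 54.5 CPM in the WT, 36.1 and 58.4 in the KO and 40.1 and 64.6 in the KE NK libraries. CD8 T cells gave 19.7 and 55.8 CPM in the WT, 118 and 21.7 in the KO and 114 and 54.1 in the KE group. The NK libraries lay inside the CD8 range, which was 5.98-fold wide against 1.79-fold in NK cells.

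Dusp1 (ENSMUSG00000024190, chromosome 17, 26505590 to 26562128, minus strand) measured 467 and 513 CPM in the WT, 784 and 261 in the KO and 488 and 455 in the KE NK libraries. The CD8 libraries held 413 and 473 CPM in the WT, 476 and 212 in the KO and 680.3 and 395 in the KE group. The cell types overlapped over nearly their whole range, and KO replicate 2 was the lowest library of each cell type.

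The members were not all high or low together. Over the 45 pairs, Pearson r of log2 CPM had a median of 0.02, with 5 pairs over 0.5 and 2 under -0.5. Those over 0.5 were Fos with Nr4a1 (0.64), Jun (0.55) and Nr4a3 (0.51), Nr4a1 with Nr4a3 (0.61) and Jun with Junb (0.51). Those under -0.5 were Nr4a2 with Junb (-0.68) and Jun (-0.63). Among the 6 CD8 libraries, CD8 KO 1 was highest for Jun, Egr1, Nr4a2 and Nr4a3 but lowest for Junb, and CD8 KE 1 was highest for Fos, Nr4a1 and Dusp1 but lowest for Jun and Egr1. CD8 WT 1 was lowest for Fos, Jund, Nr4a2 and Nr4a3. Among the 6 NK libraries, NK KE 1 was lowest for Fos, Jun, Jund and Egr1 and highest for Nr4a2. NK WT 1 was highest for Fosb, Egr1 and Nr4a1 and lowest for none. NK KE 1 and NK KO 2 were also the libraries with the fewest genes detected, at 12776 and 12830, against 13440 to 14015 in the other 10.

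The first comparison asked how tumour NK cells and CD8 T cells differ in these genes, as the mean of the differences within WT, KO and KE. Nr4a2 was lower in NK cells, at 2.78-fold below the CD8 level (log2 fold change -1.48, SE 0.29, FDR 0.0153, edgeR quasi-likelihood test over all 13279 genes). It was the 1 member of 10 past the threshold, set at an FDR below 0.05 together with a 2-fold change in either direction, where 4.53% of all genes passed in either direction and 2.58% passed as lower in NK cells. It was also the 1 member whose 6 NK libraries were all below the 6 CD8 libraries, which held for 2.94% of all genes. No member had all NK libraries above all CD8 libraries (1.99% of genes). In bulk samples, fewer cells of a type and less RNA per cell cannot be told apart. The share of counts from mitochondrial genes also differed between the cell types, at 2.40% to 4.64% in NK and 4.50% to 7.68% in CD8 libraries, which overlapped only through NK KE 1 and CD8 WT 2, and its part in the differences between cell types was not tested.

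The FDR of Nr4a2 lay between 0.00267 and 0.0553 when 1 library was left out at a time, and it rose above 0.05 without NK WT 2 (0.0553) and without NK KE 2 (0.0527). Without CD8 KO 1, the library with the highest value, the log2 fold change was -1.08 (FDR 0.0283). Without the 3 NK libraries rich in myeloid transcripts, which leaves the mean over KO and KE, it was -1.73 (SE 0.45, FDR 0.112), a difference as large as before that no longer passed.

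Junb was 1.59-fold higher in NK cells (log2 fold change 0.67, SE 0.16, FDR 0.0378), below the fold threshold. At any fold change, 5.41% of genes had an FDR under 0.05. The FDR of Junb lay under 0.05 with 2 of the 12 libraries left out in turn, NK WT 2 (0.0281) and CD8 KE 2 (0.0245), and over it with each of the other 10, up to 0.103.

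Jun and Fos fall outside the rule for named results and were chosen after their values were seen. Jun was 2.92-fold higher in NK cells (log2 fold change 1.55, SE 0.43, FDR 0.0666) and did not pass. With 1 library left out at a time its log2 fold change ran from 1.05 (FDR 0.206, without NK KE 2) to 1.78 (FDR 0.0242, without NK KE 1), and the latter was the 1 omission with which it passed. Fos was 3.25-fold higher (log2 fold change 1.70, SE 0.60, FDR 0.147) and did not pass. Its value ran from 1.05 without NK KE 2 to 2.48 without CD8 WT 2, and it passed under none of the 12 omissions. DESeq2 gave both an FDR under 0.05, at 0.00436 for Jun and 0.0151 for Fos.

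**Figure D2:**
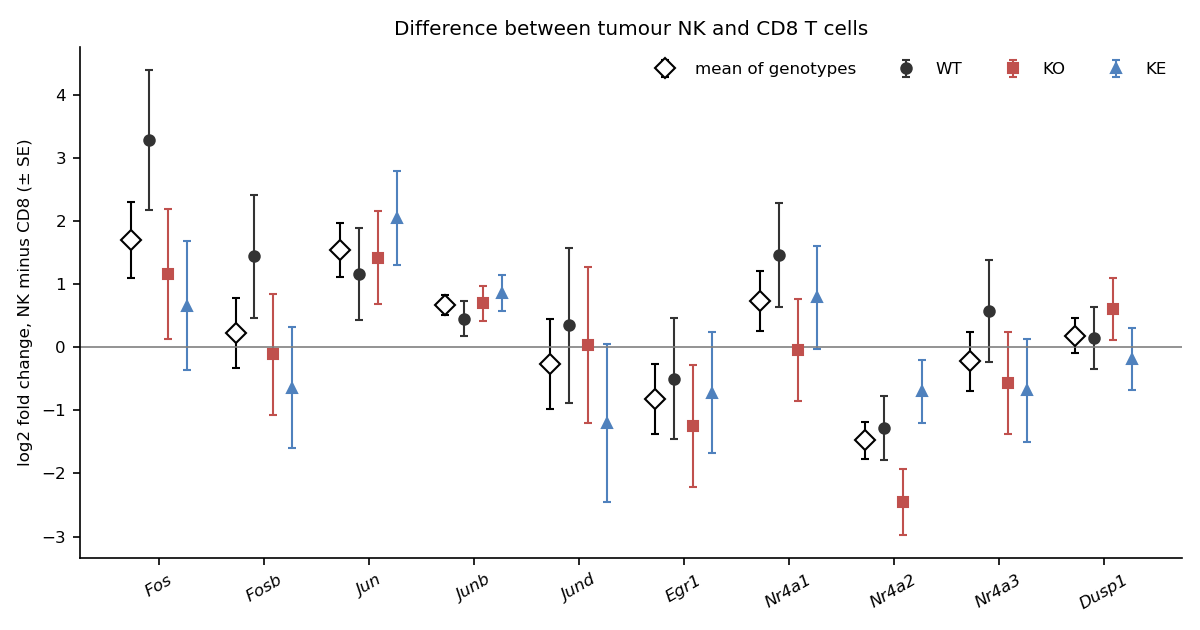
log2 fold change between tumour NK cells and CD8 T cells for each of the 10 genes, with SE as error bars, for the mean over genotypes (open diamonds) and within WT (black), KO (red) and KE (blue). Values above 0 are higher in NK cells. Nr4a2 lies below 0 and Fos, Jun and Junb above 0 in all 3 genotypes, with Fos running from 0.66 in KE to 3.28 in WT.

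Fos was highest in the NK libraries with the most myeloid transcripts. The 3 NK libraries with the most Fos (NK WT 2, NK WT 1 and NK KO 1) were the 3 with the highest myeloid sums, both over all 15 markers and over the 12. With those 3 libraries left out, which leaves the mean over KO and KE, the log2 fold change of Fos between NK and CD8 cells was 0.35 (SE 0.86). That of Jun was 1.78 and that of Junb was 0.81, and none passed. With all libraries kept, Fos was at 1.17 in KO and 0.66 in KE. The value of 0.35 is therefore not the same measure as the 1.70 that includes WT. The part of myeloid RNA in the level of Fos was not tested. Among the other 3, NK KE 2 had 205 CPM of Fos with a sum of 2114 CPM over the 15 markers and 635 over the 12, and NK KE 1 had 30.1 CPM of Fos with sums of 2184 and 368. Over all 12 libraries, 3 of the 15 myeloid markers were higher in NK cells by the same threshold, and these were the 3 that NK cells express themselves (Ccr2, Fcgr3 and Itgam), while 13 had an unadjusted p under 0.05.

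**Figure D3:**
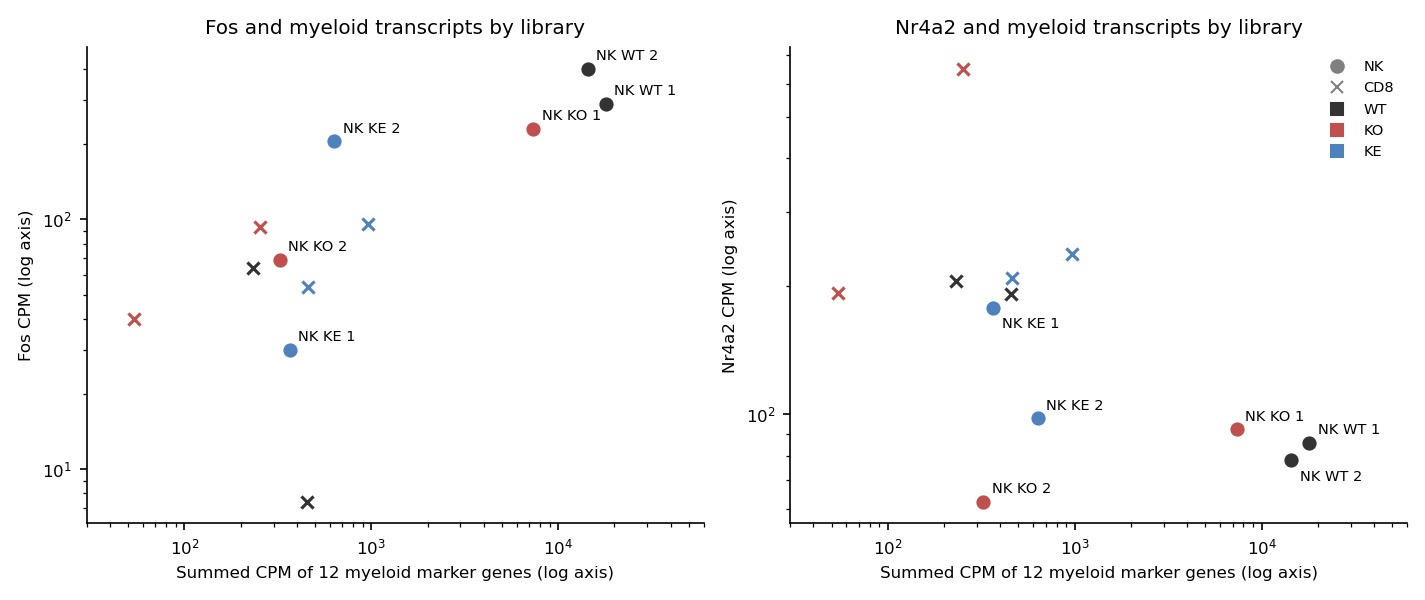
CPM of Fos (left) and Nr4a2 (right) against the summed CPM of 12 myeloid marker genes (without Ccr2, Fcgr3 and Itgam) in each library, both on log axes, with circles for NK and crosses for CD8 libraries, and black, red and blue for WT, KO and KE. The 3 NK libraries with a sum of 7378 CPM or more have the highest Fos, at 231 to 401 CPM, and Nr4a2 is below the CD8 libraries in NK libraries with high and with low sums.

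The remaining 6 members did not pass and had unadjusted p-values over 0.05. Nr4a1 had a log2 fold change of 0.74 (95% interval -0.31 to 1.78), Egr1 of -0.82 (-2.05 to 0.41), Fosb of 0.23 (-0.995 to 1.46), Jund of -0.27 (-1.85 to 1.31), Nr4a3 of -0.22 (-1.26 to 0.81) and Dusp1 of 0.19 (-0.44 to 0.81). Single libraries moved most of these values. With 1 left out at a time, Nr4a1 ran from 0.49 (without CD8 KE 2) to 1.39 (without CD8 KE 1, FDR 0.104) and Egr1 from -1.43 (without NK KE 2, FDR 0.231) to -0.28 (without CD8 KO 1). Jund ran from -0.60 (without NK KO 2) to -0.08 (without NK KO 1). The other 3 changed sign: Fosb ran from -0.10 (without NK KE 1) to 0.47 (without CD8 KO 2), Nr4a3 from -0.45 (without CD8 KO 2) to 0.36 (without CD8 KO 1) and Dusp1 from -0.15 (without NK KO 1) to 0.44 (without CD8 KO 1). None of the 6 passed under any of the 12 omissions. Without the 3 NK libraries rich in myeloid transcripts, Fosb was at -0.47, Dusp1 at -0.29 and Nr4a1 at 0.43, and none of the 6 passed. The interval of Jund spans more than a 2-fold difference in either direction, so that a difference of that size was not detectable with these libraries. That of Dusp1 over all 12 libraries, taken alone, holds no 2-fold difference. The median log2 fold change of the 10 members was 0.21, against 0.02 over all genes, and 4 members had an unadjusted p under 0.05, where 19.3% of genes did.

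Within single genotypes no member passed. In WT mice the smallest p belonged to Fos (log2 fold change 3.28, SE 1.11, FDR 0.32) and Nr4a2 (-1.28, SE 0.50, FDR 0.428), and 0.776% of genes passed. In KO mice they belonged to Nr4a2 (-2.45, SE 0.52, FDR 0.0700) and Junb (0.70, SE 0.28, FDR 0.444), and 0.904% of genes passed. In KE mice they belonged to Junb (0.86, SE 0.28, FDR 0.297) and Jun (2.05, SE 0.75, FDR 0.374), and 0.776% of genes passed. The unadjusted p lay below 0.05 for 2 of 10 members in each genotype, and for 10.3%, 9.74% and 9.62% of all genes in WT, KO and KE mice. DESeq2 placed Fos past the threshold in WT and Nr4a2 in KO mice. With no filter on low counts Fos and Nr4a1 (log2 fold change 1.48, FDR 0.0218) passed in WT and Nr4a2 in KO mice. The fit with no filter treats the spread of single genes differently and is no check on the main fit. In WT mice the 15 myeloid markers had a median log2 fold change of 5.52 between NK and CD8 libraries and 12 of them had an unadjusted p under 0.05, against a median of 3.70 with 6 in KO and of 0.18 with 6 in KE mice; their part in the values of Fos was not tested. With 1 library left out, Fos in WT ran from 2.45 (without CD8 WT 1) to 5.56 (without CD8 WT 2) and Jun in KE from 0.56 (without NK KE 2) to 2.77 (without NK KE 1). The value of Nr4a2 in KO mice rested in part on CD8 KO 1, without which the log2 fold change was -1.30. Without CD8 KO 2 it was -3.03.

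The second set of comparisons asked what loss of TYK2 or of its kinase activity does to these genes in each cell type. By edgeR no member passed in NK cells or in CD8 T cells, no member had an unadjusted p under 0.05, and DESeq2 called none. In NK cells 0% of genes passed for the knockout, for the kinase-inactive allele and between the 2 mutants, and 6.3%, 6.02% and 3.81% had an unadjusted p under 0.05. DESeq2 called 373, 386 and 205 genes in these 3 comparisons, and edgeR with no filter on low counts called 195, 256 and 96. For CD8 T cells the shares of genes that passed were 0.0527%, 0.0828% and 0%, and those with an unadjusted p under 0.05 were 4.79%, 5.56% and 3.63%. There DESeq2 called 232, 331 and 156 genes, and edgeR with no filter 124, 185 and 82. The KO and KE comparisons use the same WT libraries and are therefore not independent.

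In NK cells of KO mice the smallest p against WT belonged to Nr4a1 (log2 fold change -1.12, SE 0.82, FDR 0.841) and Jun (0.91, SE 0.73, FDR 0.887). In NK cells of KE mice they belonged to Fosb (-1.74, SE 0.98, FDR 0.823) and Nr4a2 (0.76, SE 0.50, FDR 0.841). Fosb in KE ran from -2.74 (without NK KE 1) to -1.15 (without NK KE 2). Between KO and KE they belonged to Nr4a2 (-0.84, SE 0.50) and Junb (-0.45, SE 0.28), with an FDR that rounds to 1.00 for each. Fos and Fosb were below both WT libraries in all 4 mutant NK libraries. This held for 2 of 10 members and for 10.8% of all genes, and no member was above both WT libraries in all 4 (7.06% of genes). In this cell type the WT libraries are also the 2 with the highest myeloid sums, and the 15 myeloid markers had a median log2 fold change against WT of -2.79 in KO (2 with an unadjusted p under 0.05) and -5.55 in KE (9). The 10 T cell markers tested had a median of 0.66 in KO (2 with an unadjusted p under 0.05) and 0.88 in KE (3). The part of myeloid or T cell transcripts in the order was not tested.

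In CD8 T cells of KO mice the smallest p against WT belonged to Nr4a2 (log2 fold change 1.08, SE 0.50, FDR 0.887) and Junb (-0.33, SE 0.28, FDR 0.993). The value of Nr4a2 rested on CD8 KO 1, at 650.3 CPM against 193 in CD8 KO 2, and without that library it was -0.04. For KE mice they belonged to Nr4a3 (1.16, SE 0.82, FDR 0.845) and Fos (1.07, SE 1.03, FDR 0.968). With 1 library left out, Nr4a3 there ran from 0.52 to 2.11 and Fos from 0.23 to 3.35, both highest without CD8 WT 2. Between KO and KE they belonged to Nr4a2 (0.91, SE 0.50) and Egr1 (1.35, SE 0.97), again with an FDR that rounds to 1.00, and both turned negative without CD8 KO 1, at -0.22 and -0.20. Jund was above both WT libraries in all 4 mutant CD8 libraries, which held for 1 of 10 members and for 6.8% of all genes, and no member was below both in all 4 (7.52% of genes).

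**Figure D4:**
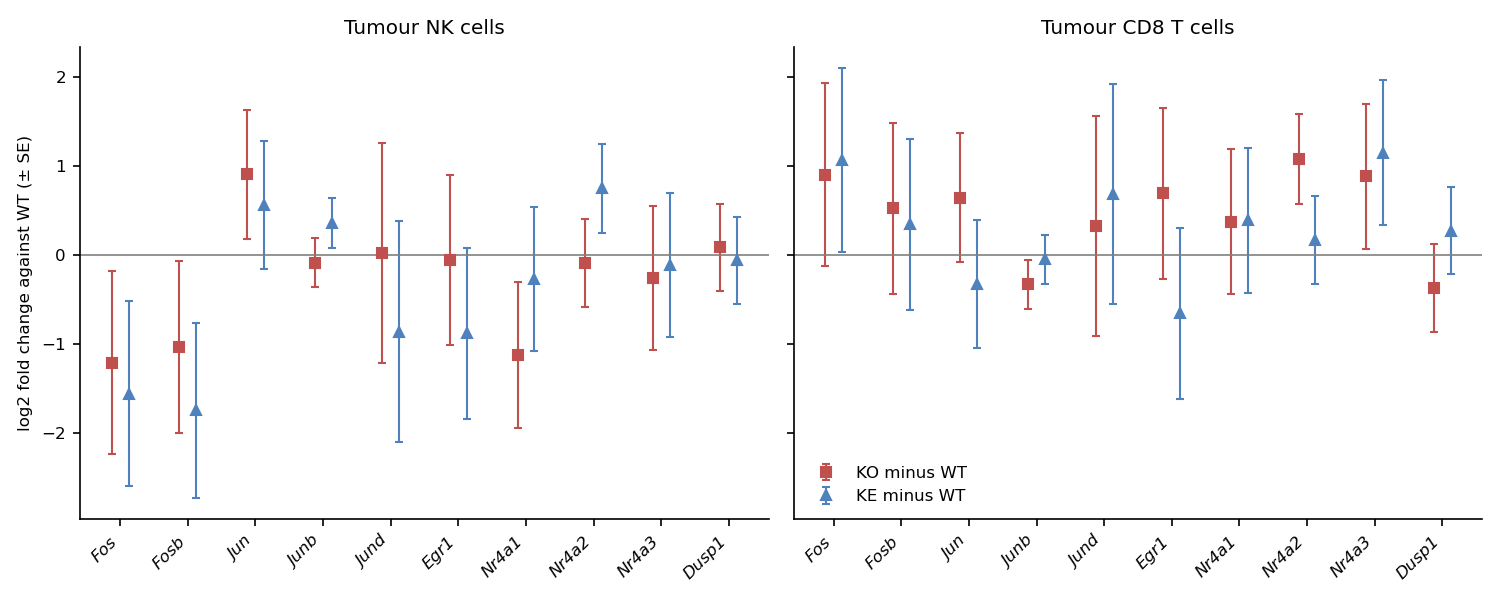
log2 fold change against WT of each of the 10 genes in NK cells (left) and CD8 T cells (right), with SE as error bars, for KO (red squares) and KE (blue triangles). The values lie between -1.74 and 1.16 with SE from 0.28 for Junb to 1.24 for Jund, and none passed the threshold.

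The precision differed by gene. The narrowest 95% interval against WT was that of Junb, at -0.70 to 0.53 in KO and -0.25 to 0.98 in KE NK cells, and at -0.94 to 0.29 and -0.66 to 0.57 in CD8 T cells. For Fos the intervals were -3.49 to 1.08 and -3.86 to 0.75 in NK cells and -1.37 to 3.19 and -1.21 to 3.35 in CD8 T cells. Each of the 4 intervals of Fos reaches past 3 on the log2 scale in 1 direction, so that a change of that size cannot be told from no change. The biological coefficient of variation common to all genes was 109%.

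Whether the effect of a genotype differs between NK and CD8 T cells was tested as an interaction. No member passed, where 0.00753% of genes did for KO and 0% for KE, no member had an unadjusted p under 0.05 (5.29% of genes for KO and 6.21% for KE did), and DESeq2 called none. The smallest p belonged to Nr4a2 (log2 difference -1.17, SE 0.70, FDR 0.946) and Fos (-2.11, SE 1.45, FDR 0.974) for KO, and to Fos (-2.62, SE 1.46, FDR 0.830) and Fosb (-2.09, SE 1.37, FDR 0.879) for KE. Over all genes DESeq2 called 196 for KO and 278 for KE, and edgeR with no filter 131 and 194. With no filter on low counts, a fit that is no check on the main fit, Fos passed for KE at the same value. The 15 myeloid markers moved in the same comparisons, with a median log2 difference of -1.37 for KO (2 with an unadjusted p under 0.05) and -5.65 for KE (9), and their part in the values of Fos and Fosb was not tested. Without CD8 KO 1 the value of Nr4a2 for KO was -0.03, and those of Fos ran from -4.36 for KO and -4.87 for KE, both without CD8 WT 2, to -1.25 and -1.76, both without CD8 WT 1. Fosb for KE ran from -3.09 (without NK KE 1) to -1.50 (without NK KE 2).

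Other genes of the pathway were counted by list in the comparison of NK and CD8 T cells, where 1.95% of all genes passed as higher in NK cells, 2.58% as lower and 19.3% had an unadjusted p under 0.05. Of 12 other AP-1 and related leucine zipper genes tested, 1 was higher in NK cells and none lower, with a median log2 fold change of 1.25. The 1 gene was Fosl2, a FOS relative, at 128 to 244 CPM in NK and 50.1 to 131 CPM in CD8 libraries (log2 fold change 1.14, SE 0.22, FDR 0.0147). Without the 3 NK libraries rich in myeloid transcripts it had a log2 fold change of 1.49 and an FDR of 0.0519. Batf, an AP-1 factor of effector T cells, had a log2 fold change of -0.69 (FDR 0.195) and did not pass. The 4 tested EGR and NAB genes did not pass, the largest value being that of Egr2 (2.80, SE 0.85, FDR 0.0942), which was 0.11 (SE 1.16) without the 3 libraries, where the median of the 4 was -0.28 against 0.72 with them.

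Of 40 other early response genes tested, 2 were higher in NK cells and none lower. They were Nfil3, a factor needed for the NK lineage (log2 fold change 1.09, FDR 0.0231), and Zfp36l2, which promotes the decay of AU-rich mRNA (1.13, FDR 0.0321). Without the same 3 libraries neither passed, Nfil3 at 0.58 (FDR 0.422) and Zfp36l2 at 1.49 (FDR 0.0867). The median of the 40 was 0.17. Over all genes, 1.95% passed as higher in NK cells and 4.53% in either direction. Cd69, a surface marker of recent activation, measured 52.7 to 495 CPM in NK and 251 to 629 CPM in CD8 libraries (-1.01, FDR 0.0706) and did not pass, whereas without the 3 libraries it was lower in NK cells (-1.82, FDR 0.0249). Of 9 other dual specificity phosphatases, Dusp4 was lower in NK cells (FDR 0.0174), at 0 to 4.43 CPM against 7.33 to 27.4 CPM in CD8 libraries, and the others did not pass. Without the 3 libraries Dusp4 did not pass, at a log2 fold change of -9.19 with NK values near 0. Of 24 MAP kinase and SRF pathway genes tested none passed, the unadjusted p being below 0.05 for 2 of them (19.3% of all genes), and the median was -0.16. Without the 3 libraries 1 of them, Rps6ka1, which encodes a kinase activated by ERK, was lower in NK cells (-2.78, FDR 0.0312).

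Of 12 calcium and NFAT genes tested, 2 were higher in NK cells. Mef2c, a MEF2 factor, was at 12.6 to 78.9 CPM in NK libraries and at no more than 0.0770 CPM in CD8 libraries (FDR 0.000490). Mef2a measured 97.0 to 143 CPM in NK and 18.2 to 73.4 CPM in CD8 libraries (log2 fold change 1.45, FDR 0.0335). Without the 3 libraries Mef2c passed (FDR 0.0278) and Mef2a did not (1.64, FDR 0.163). The NFAT genes themselves did not pass, and the median of the list was 0.05.

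Among 12 genes linked to NR4A and TOX in chronically stimulated T cells, 9 were lower in NK cells and none higher, with a median log2 fold change of -3.34. The 3 with the smallest FDR were the inhibitory receptors Pdcd1 (-8.73), Lag3 (-4.51) and Havcr2 (-6.03). Pdcd1 measured 0.836 to 29.4 CPM in NK and 1165 to 1721 CPM in CD8 libraries. Tox, a partner of NR4A factors in these cells, measured 15.7 to 63.9 CPM in NK and 63.6 to 434 CPM in CD8 libraries (-2.85), a difference in the same direction as Nr4a2, whereas Nr4a1 and Nr4a3 did not pass. Without the 3 libraries 6 of the 12 passed as lower, Pdcd1, Lag3 and Havcr2 among them (-9.95, -4.76 and -8.04), and Tox did not (-3.13, FDR 0.0989).

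The 11 heat shock and dissociation genes tested included none that passed. The unadjusted p was below 0.05 for 3 of them, where 19.3% of all genes had such a p, and the median was -0.01. Their summed level was 4364 to 5877 CPM in NK and 4350 to 5329 CPM in CD8 libraries. Hspa1a, a heat-inducible chaperone, measured 0 to 49.3 CPM in NK and 0 to 8.97 CPM in CD8 libraries (FDR 0.104), highest in NK WT 2. By edgeR no gene of these lists passed in any comparison between genotypes.

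**Figure D5:**
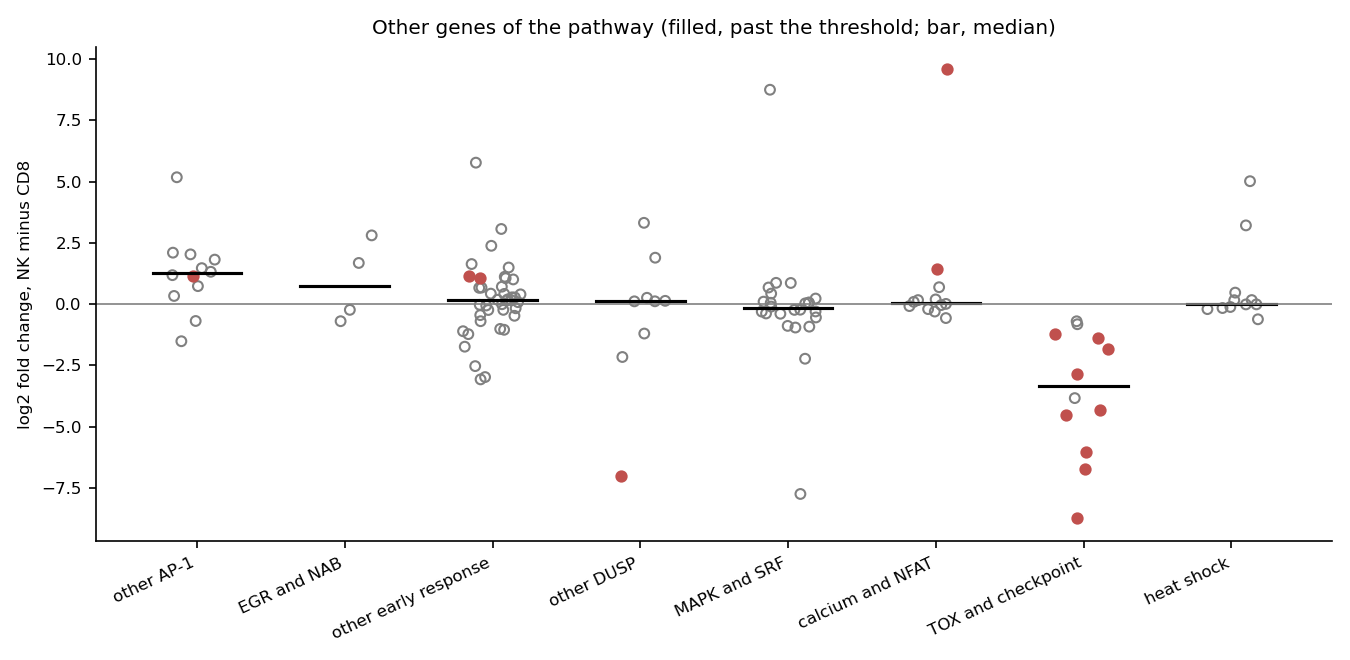
log2 fold change between NK and CD8 T cells, as the mean over genotypes, for each tested gene of the 8 lists, with filled red points past the threshold, open points not past it and a black bar at the median of the list. The TOX and checkpoint list has 9 of 12 genes past the threshold below 0, and the other 7 lists have no more than 2 genes past it.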

How the data were processed

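RNA from sorted tumour NK and CD8 T cells was sequenced after Smart-seq2 amplification. The authors trimmed 50-base single-end reads with Trimmomatic, aligned them with STAR to the mouse genome (mm10, GRCm38) and deposited raw counts of uniquely mapped reads in exons of Ensembl release 93 genes, 1 value per gene and library. The labels call the libraries stranded, and the use of strand in counting is not given in the sources used here. Amplified reads carry no molecular identifiers, so that counts are not independent molecules. Of 54232 gene identifiers, 153 had no symbol in GENCODE M21, which also gave positions on GRCm38.

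The 12 libraries formed 6 groups of 2 by the labels. Counts were scaled by TMM and tested in edgeR 4.0.16 (robust quasi-likelihood F-test, 1 mean per group, all libraries in 1 fit) over the 13279 genes whose normalized counts averaged 10 or more. Genes were called where the Benjamini-Hochberg FDR was below 0.05 and the log2 fold change was 1 or more in size. SE was taken as the size of the log2 fold change over the root of its F statistic, and intervals are 95% intervals. Levels are CPM on the effective library size, where 3 counts, taken as the floor, were worth 0.219 to 0.276 CPM. DESeq2 1.42.0, its size factors, no filter, a replicate block, fits of 1 cell type and leaving out each library were the alternatives.

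All 10 genes are given in every library. In each comparison, members past the threshold are named and, where fewer than 2 passed, the 2 with the smallest p; of other lists, up to 3 called genes in each direction, by FDR. The members, lists and tests were chosen with earlier results of these data known, so they are not independent of these data. Cyr61, Mkl1 and Mkl2 of the lists had no matching symbol. Replicates correlated at 0.750 to 0.796 (log2 CPM), and none were the same library. No test of a list was made.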

Additional observations from a re-analysis of the deposited data

How the results depend on the processing

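The call of Nr4a2 as lower in NK cells was kept with DESeq2 size factors, with DESeq2 and with the replicate block, at FDRs of 0.0171, 8.7e-05 and 0.0121. With no filter on low counts its FDR was 6.87e-07, but that fit treated the spread of single genes differently. The multiple of SE that sets an interval was 1.96 there and 2.22 in the main fit. The SE between cell types (mean over genotypes) was 0.29 against 0.60 for Fos and 0.81 against 0.55 for Fosb. FDRs and calls with no filter are therefore no check on the main fit. With 1 library left out, 0 to 2 members were called as the mean over genotypes and 0 to 1 within KO, where Nr4a2 passed without CD8 KO 2. Of the members named in each comparison by rule, the values that changed sign did so without CD8 KO 1: Nr4a2 in CD8 KO against WT (-0.0377 to 1.69 over the 12 omissions), Nr4a2 in CD8 KO against KE (-0.22 to 1.52) and Egr1 there (-0.20 to 2.69). Leaving out NK WT 1, NK WT 2 and NK KO 1, chosen after seeing the data, left 0 members and 291 genes called. Of the values of members named in each comparison, under the settings other than leaving out 1 library, 111 kept direction and side of the threshold, 8 newly passed (Fos, Jun and Nr4a2 between cell types and Fos in the KE interaction, with no filter or DESeq2) and 1, Nr4a2 without those 3 libraries, no longer did; Nr4a1, not among them, also passed within WT with no filter.

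Members called rose with no filter to 2 (mean), 2 (WT), 1 (KO) and 1 (interaction, KE) and with DESeq2 to 3 (mean), 1 (WT) and 1 (KO). Genes called, in the order NK against CD8 as mean, in WT, in KO and in KE, were 1231, 537, 524 and 498 with no filter and 1589, 831, 815 and 807 with DESeq2. For the KO effect, the KE effect and KO against KE they were 195, 256 and 96 (no filter) and 373, 386 and 205 (DESeq2) in NK cells, 124, 185 and 82 and 232, 331 and 156 in CD8 T cells, and the interactions gave 131 and 194 and 196 and 278. The fit with no filter treated the spread of single genes differently, as given above, and the cause of the larger counts was not tested. The replicate block gave 68 genes for NK against CD8 in KE, 3 and 4 for KO and KE against WT in CD8 T cells and 0 for the KO interaction. Same-numbered replicates shared only a number (correlation of deviations -0.0250 to 0.0378), and no call of a member changed with the block. The edgeR FDR of Junb between the cell types, under 0.05 in the main fit, was 0.0619 with the block. Fits of CD8 libraries alone gave 0 genes for both mutants, and DESeq2 size factors gave 2 for the KO interaction.

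With 1 library left out, genes called numbered 406 to 559 (mean), 51 to 129 (WT), 65 to 124 (KO) and 33 to 111 (KE) between cell types, 0 to 5, 0 to 11 and 0 to 0 in NK cells, 1 to 13, 0 to 8 and 0 to 1 in CD8 T cells, and 0 to 3 and 0 to 2 for the interactions. A lone remaining library was taken to vary like the other groups. With 2 libraries a group, genes as variable as Fos and Egr1 have intervals several fold wide between genotypes.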

Other observations

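Over the 12 libraries, the 5 genes outside the members whose log2 CPM was most like the mean log2 CPM of the 10 members were Srek1, Gpn1, Csf2ra, Abcd4 and Zfp169, at Pearson r of 0.936, 0.880, 0.864, 0.855 and 0.850 among 8962 genes whose normalized counts averaged 100 or more. These are the top values of many in libraries that share 2 cell types and differ in depth and detected genes, and they are given as a description. The 45 pairs of members had a median Pearson r of 0.02, so that the mean of the 10 stands for no pattern shared by all of them. None of the other early response genes was among the 5.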
